A study of Mus musculus with 7 samples.

Results

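The mouse mitochondrial chromosome carries 37 of the 37310 genes counted in these mammary gland libraries, and all 37 were taken, whatever their values, because the deposited table places them on chromosome M. They are 13 mRNA genes, 2 rRNA genes and 22 tRNA genes on a circle of 16299 bases (assembly NCBIM37, also called mm9). RNA came from whole mammary glands of C57BL/6 mice at lactation day 1 (L1), in 3 libraries labelled WT and 4 labelled Tardbp KO. *Tardbp* encodes the RNA-binding protein TDP-43. The WT mice carried unmodified *Tardbp* alleles (wt/wt) and the KO mice carried floxed alleles (fl/fl), and both groups carried the WAP-Cre transgene. In WAP-Cre the promoter of *Wap*, which encodes a milk protein, drives the recombinase, which deletes *Tardbp* in luminal epithelial cells from pregnancy on, so that the other cells of the gland keep the gene. The labels do not state which animals lie behind the libraries, so the tests measure the spread between these 7 samples. Over the whole gene, *Tardbp* itself differed by a log2 fold change of 0.01 (SE 0.18), so that its total count does not mark the genotype.

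Mitochondrial DNA is transcribed from both strands as long RNAs that hold many genes in a row, and the tRNAs between the other genes are cut out to release the mRNAs and rRNAs. Each of the mRNAs encodes a subunit of an oxidative phosphorylation (OXPHOS) complex, the enzymes that pass electrons to oxygen and make ATP, and the rRNAs build the ribosome that translates them. All other subunits, and every protein that copies, transcribes or processes this genome, come from nuclear genes. Secretory cells of the lactating gland are rich in mitochondria.

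Total counts lay between 36007737 and 42811337 per library. Genes of milk proteins took 26.3% to 34.0% of them in WT libraries and 12.7% to 21.8% in KO libraries, and the TMM factors that scale the libraries, computed from the nuclear genes without ribosomal ones, were 0.781 to 0.909 in WT and 1.00 to 1.23 in KO. The choice of scale therefore bears on every level below: the median log2 fold change (KO over WT) of all 17196 genes tested was 0.05 with TMM factors and 0.40 with library size alone. KO replicates 1 and 3 stood apart by their lymphocyte genes. All 9 markers of B and T cells (*Ms4a1*, *Cd3e* and others) were higher in KO, with a summed level of 375.9 and 509.3 CPM (counts scaled to a library of 1e6) in these libraries, 64.8 and 111.5 in KO replicates 2 and 4, and 37.7 to 55.3 in WT. The summed level of 6 luminal epithelial markers (*Krt8*, *Krt18*, *Epcam* and others) was 2623 to 3269 CPM in WT and 2651 to 3838 in KO. Of these markers 5 had a log2 fold change above 0 and 1 below (median 0.40). In edgeR's quasi-likelihood test 2 were higher and 1 lower in KO at an unadjusted p under 0.05. Of all genes tested, 10.7% were so in each direction. Of 10 skeletal muscle genes, a tissue rich in mitochondria that can lie beside the gland, the summed level was 8.56 to 13.2 CPM in WT and 9.01 to 13.2 in KO. Of 8 myeloid markers 7 had a log2 fold change above 0 (median 0.64), with summed levels of 384.2, 1516 and 680.8 CPM in WT and 1076, 2164, 2640 and 2452 in KO, which overlapped. KO replicate 1 had the highest sum of 7 myoepithelial markers, 2806 CPM beside 1099 to 1869 in WT and 959.6 to 1139 in the other KO libraries. The part of these cell types in the results was not tested, and in bulk tissue fewer cells of a type and less RNA per cell cannot be told apart. By the run names in the labels only lane 4 held both genotypes, with WT replicate 2 and KO replicates 3 and 4.

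Which of the 37 genes the table can measure depends on a stretch of nuclear DNA. A read was counted only if it mapped to a single place and overlapped a single gene. A search of the nuclear chromosomes found 40 stretches of at least 100 bases that match the mitochondrial chromosome. The longest lay on the minus strand of chromosome 1 (chr1:24618374-24623027), matched chrM:6390-11042 and was 99.9% identical over 4654 aligned bases. It runs from the last part of *mt-Co1* through *mt-Co2*, *mt-Atp8*, *mt-Atp6*, *mt-Co3*, *mt-Nd3* and *mt-Nd4l* into *mt-Nd4*. Only 3 differences were found over this length, of which 1 lay at the edge of the match. The other two are shown because they are the only bases of the inner part by which a read of the mitochondrial RNA differs from the nuclear copy. All 4 windows are written on the mitochondrial plus strand, and the capitals mark the base or run that differs.
Mitochondrial, *mt-Nd3*, chrM:9449-9473: gaagagagtaatTaacctgtacact
Nuclear copy, chr1:24619944-24619968: gaagagagtaatCaacctgtacact
Mitochondrial, *mt-Tr*, chrM:9809-9832: ggtaattagtttAAAAAAAAttaa
Nuclear copy, chr1:24619584-24619608: ggtaattagtttAAAAAAAAAttaa
The first pair holds the substitution T9461C, the mitochondrial base first, with positions counted along chromosome M. In the second pair a run of 8 A in the mitochondrial sequence is a run of 9 in the copy.

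To set the counts against this, every window of 100 bases on chromosome M was called countable for a gene if it overlapped no other gene and had no exact copy in a nuclear match. The read length is not given in the sources used here, and 150-base windows divided the mRNA genes in the same way. Of the windows that touch a gene, 89.0% were countable for *mt-Nd5*, 84.5% for *mt-Cytb*, 81.1% for *mt-Nd1*, 79.8% for *mt-Nd2*, 65.7% for *mt-Nd6*, 60.9% for *mt-Co1* and 34.1% for *mt-Nd4*. None was countable for *mt-Co2*, *mt-Atp8*, *mt-Atp6*, *mt-Co3* or *mt-Nd4l*, and 0.671% were for *mt-Nd3*. The counts fell into the same 2 sets. The 7 countable mRNA genes had 12178 to 473595 counts per library, and the 6 copied ones had 9 to 654, or 0.184% to 0.316% of all mitochondrial mRNA counts. Their levels are therefore not a measure of how abundant these 6 mRNAs are. A pair of annotated nuclear genes within the copy also took counts. *Gm10925*, which matches chrM:7790-8603 over *mt-Atp8* and *mt-Atp6*, had 298 to 597 counts per library. *Gm10222*, which matches chrM:9877-10173 and so the whole of *mt-Nd4l*, had 68 to 116. These counts cannot be told apart from reads of the mitochondrial genes.

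**Figure D1:**
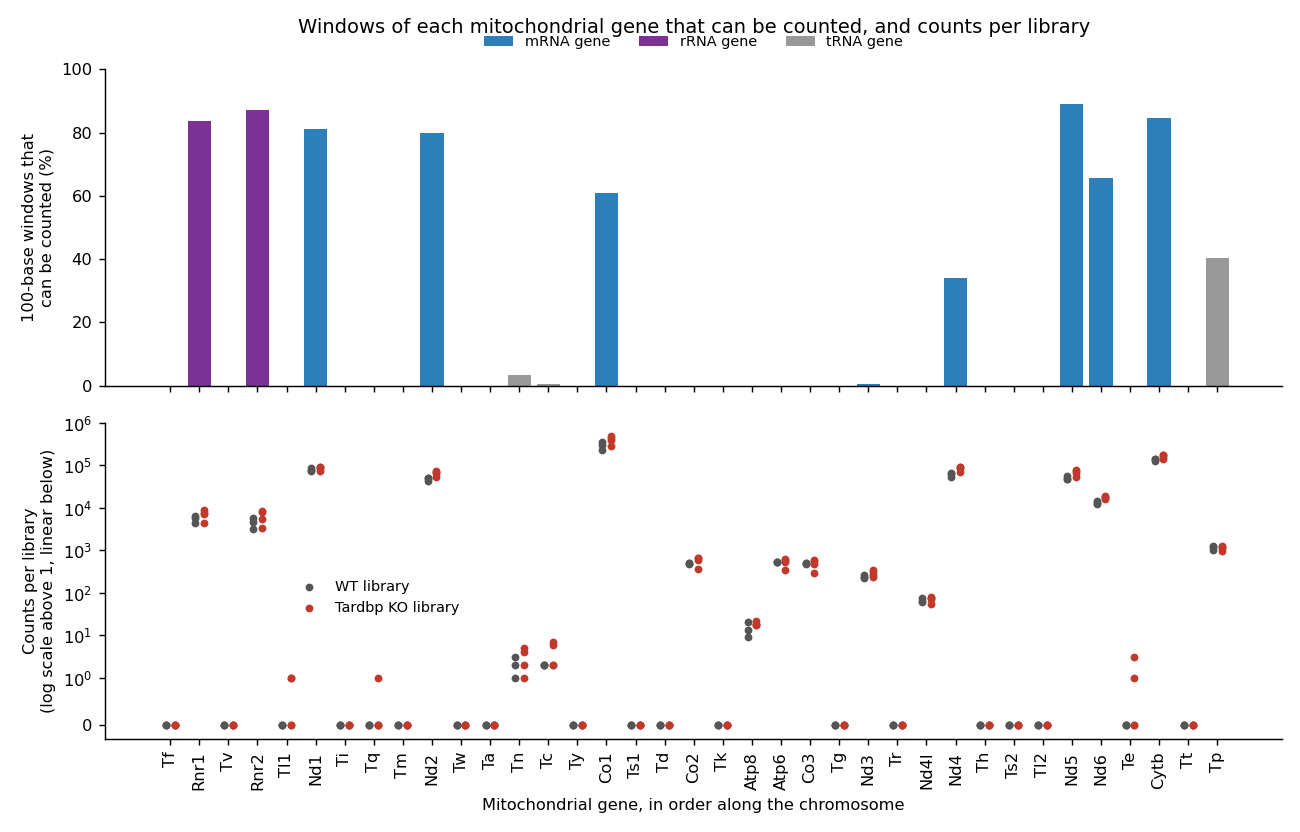
The 37 mitochondrial genes in their order along chromosome M: top, percent of the 100-base windows touching each gene that overlap no other gene and have no exact nuclear copy; bottom, counts in each of the 3 WT and 4 Tardbp KO libraries (log scale above 1, linear below). The 6 mRNA genes without countable windows, or nearly so, stay at or below 654 counts, while the other 7 mRNA genes lie at 12178 or above, and 16 tRNA genes are at 0 in every library.

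The tRNA genes were nearly unmeasured. They are 59 to 75 bases long and most lie directly against a neighbour, so that 19 of the 22 had no countable 100-base window. Those 19 include all 16 tRNA genes with 0 counts in all 7 libraries. Depth alone would allow a share of up to 7.01e-06% to 8.33e-06% of a library's counts (3 counts, counting error only). Without countable windows this sets no limit on the level of these RNAs. A further 5 had at most 7 counts in any library. The exception was *mt-Tp*, the tRNA for proline, which borders the gene-free control region of the chromosome (chrM:15356-15422, minus strand). The gene is 67 bases long, so each of its countable 100-base windows runs on into that region. Since the counts do not use strand, they cannot be told apart from RNA of that region or of the opposite strand. *mt-Tp* had 1001 to 1240 counts in WT and 928 to 1280 in KO libraries, and it was the only tRNA gene to pass the filter of at least 5 counts in at least 4 libraries. With the 13 mRNA and 2 rRNA genes, 16 of the 37 members were tested, and 21 were not.

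Mitochondrial mRNA took a larger share of all counts in every KO library than in any WT library. Its share was 1.61%, 1.87% and 1.77% in WT replicates 1 to 3, and 1.91%, 2.32%, 2.34% and 2.12% in KO replicates 1 to 4. The means were 1.75% ± 0.132 (SD, n = 3) and 2.17% ± 0.202 (SD, n = 4), and the Wilson 95% interval of each library reached at most 0.00462 percentage points to either side. Milk protein genes took a smaller share of the counts in KO, and their part in this separation was not tested. Without them the mRNA share was 2.46% ± 0.0715 in WT (2.44%, 2.54% and 2.402%) and 2.62% ± 0.125 in KO (2.44%, 2.72%, 2.68% and 2.62%), and the groups overlapped through KO replicate 1. On the scale of the TMM factors the 13 mRNAs summed to 21811, 22028 and 20878 CPM in WT and to 18604, 21747, 20487 and 22804 CPM in KO, again with overlap. The means were 21572 ± 611 and 20911 ± 1806 CPM, so that KO was higher as a share of all counts and lower on the TMM scale. Within lane 4 the share was 1.87% in WT replicate 2 against 2.34% and 2.12% in KO replicates 3 and 4, and the TMM-scaled sum was 22028 CPM against 20487 and 22804.

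**Figure D2:**
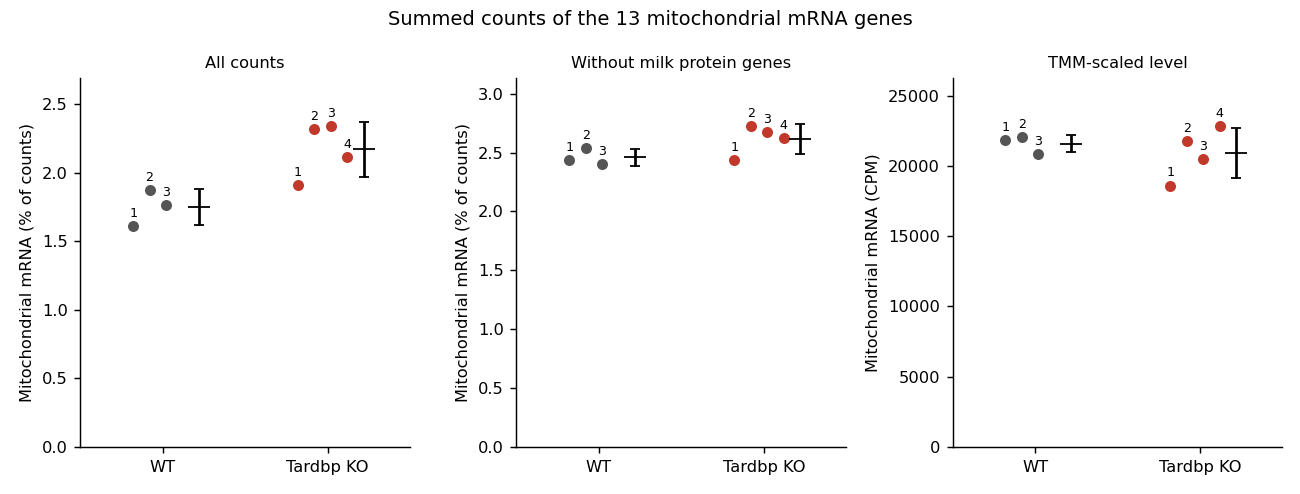
Summed counts of the 13 mitochondrial mRNA genes in each library, with the group mean and SD: left, percent of all counts; middle, percent of counts without milk protein genes; right, CPM scaled with TMM factors of the other genes. All 4 KO libraries (1.91% to 2.34%) lie above the 3 WT libraries (1.61% to 1.87%) in the left panel, and the groups overlap in the other two.

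The rRNA genes together held 0.0203%, 0.03001% and 0.0255% of the counts in WT and 0.0207%, 0.0372%, 0.0403% and 0.0309% in KO libraries, with overlap. For every 1000 mitochondrial mRNA counts there were 12.6 to 16.03 rRNA counts in WT and 10.9 to 17.2 in KO. The library kit selects polyadenylated RNA, and its part in this low ratio was not tested. The tRNA share, almost all from *mt-Tp*, was 0.00279% to 0.00313% in WT and 0.00255% to 0.00319% in KO.

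Levels differed widely among the 7 countable mRNAs. Levels were set per 1000 countable windows, to allow for gene length and for which single reads could be counted. Pairs of reads were not modelled, so this correction is approximate. On this scale WT libraries had 9150 ± 946 CPM of *mt-Co1*, the catalytic subunit of complex IV, and this was the highest. Next came *mt-Cytb*, the cytochrome b of complex III, at 4134 ± 196, and *mt-Nd4* of complex I at 3882 ± 134. These neighbours differed by less than the sum of their SDs with 100-base windows, but not with 150-base windows (4341 ± 206 and 3882 ± 134). *mt-Nd1* followed at 2963 ± 300, *mt-Nd2* at 1649 ± 51.9, *mt-Nd6* at 1038 ± 83.4 and *mt-Nd5* at 939 ± 117 (each mean ± SD, n = 3), and the last pair again lay within the sum of their SDs. In KO libraries *mt-Nd4* (4022 ± 440) stood above *mt-Cytb* (3670 ± 239), within their spread, and the order was otherwise the same. Per kilobase of gene, with no regard to countable windows, *mt-Nd4* had 1417 ± 48.9 CPM in WT against 2650 ± 268 for *mt-Nd1*, so that its place in the order depends on this correction. *mt-Nd6* is the only mRNA gene on the minus strand (chrM:13552-14070), and since the counts do not use strand, reads of the RNA that runs opposite to it cannot be told apart from its own.

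No mitochondrial gene was called between genotypes. A call required a log2 fold change above 1 or below -1 and an adjusted p under 0.01. Under these limits edgeR's quasi-likelihood test called 0 of the 16 beside 0.0% of all 17196 genes, the exact test of edgeR 0 of the 16 beside 2.48%, and DESeq2's Wald test 0 beside 3.34%. At an unadjusted p under 0.05 in the quasi-likelihood test stood 1 of the 16, or 6.25%, beside 21.4% of all genes tested. Levels of 3 of the 16 did not overlap between genotypes, or 18.8%, beside 18.7% of all genes, and in these 3 the KO libraries were the lower ones (9.62% of all genes). In none of the 16 were all KO libraries the higher ones (9.06% of all genes). Fold changes were small in either direction. Of the 16, 12 had a log2 fold change below 0, against 45.7% of all genes, and the values lay between -0.50 and 0.07 with SEs of 0.15 to 0.39. With library size alone 3 of the 16 lay below 0, when 18.9% of all genes did.

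Complex I takes up electrons from NADH, and *mt-Nd1* was its member with the lowest value among the countable genes. Its levels were 2777, 2266 and 2566 CPM in WT and 1939, 1965, 1867 and 2425 in KO. KO replicate 4 lay among the WT libraries, and the other KO libraries lay below them. The log2 fold change was -0.31 (SE 0.21, quasi-likelihood adjusted p = 0.431, exact permutation p = 0.0857, where 0.0286 is the smallest p that 3 against 4 libraries allow), and it was 0.05 with library size alone. *mt-Nd2* had 1544, 1450 and 1493 CPM in WT and 1425, 1565, 1456 and 1688 in KO, a log2 fold change of 0.04. *mt-Nd4* had 1994, 1989 and 1875 CPM in WT and 1857, 2081, 1842 and 2311 in KO, a log2 fold change of 0.05. *mt-Nd5*, with 1808, 1407 and 1605 CPM in WT and 1687, 1672, 1573 and 1364 in KO, had a log2 fold change of -0.03. These last values are each smaller than their SEs of 0.18 to 0.20. *mt-Nd6* was the tightest of all, with 458.0, 391.4 and 414.3 CPM in WT and 435.8, 416.6, 387.2 and 417.0 in KO and a log2 fold change of -0.02 (SE 0.15).

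*mt-Cytb*, the only subunit of complex III that this genome encodes, had 4578, 4216 and 4227 CPM in WT and 3707, 3896, 3624 and 4189 in KO. All 4 KO libraries lay below the WT libraries, KO replicate 4 by a narrow margin. The log2 fold change was -0.17 (SE 0.21, quasi-likelihood adjusted p = 0.687, exact permutation p = 0.0571) with TMM factors and 0.18 with library size alone. *mt-Co1* of complex IV, with the most counts of all members, had 8583, 10252 and 8644 CPM in WT and 7520, 10100, 9696 and 10354 in KO. Both the lowest and the highest of the 7 values were KO libraries, and the log2 fold change was 0.04 (SE 0.27, unadjusted p = 0.883).

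The 6 mRNAs with a nuclear copy all had a log2 fold change below 0, as had 4 of the 7 countable ones, but their values rest on few reads. Their median was -0.32, beside -0.02 for the 7 countable mRNAs, -0.16 for all 13 and 0.05 for all genes tested. By library, the median log2 level relative to WT of the 6 copied mRNAs was -0.67, -0.23, -0.36 and -0.01 in KO replicates 1 to 4, and that of the 7 countable ones was -0.07, 0.06, -0.08 and -0.01. The low median of the copied genes thus came from KO replicates 1 to 3, and the median in KO replicate 4 was at the WT level. Single copied genes in KO replicate 4 ranged from -0.23 (*mt-Atp6*) to 0.24 (*mt-Nd3*). *mt-Atp8* was at 0.08, -0.04 and 0.01 in KO replicates 1 to 3. *mt-Atp6*, which helps form the proton channel of ATP synthase (complex V), had 19.3, 15.5 and 15.8 CPM in WT and 9.05, 14.3, 11.7 and 14.3 in KO, with no overlap (log2 fold change -0.45, SE 0.20, quasi-likelihood adjusted p = 0.241, exact permutation p = 0.0857). *mt-Co3* of complex IV had 18.7, 15.2 and 14.1 CPM in WT and 7.48, 13.5, 9.83 and 14.5 in KO (log2 fold change -0.50, SE 0.25). KO replicate 1 was the lowest library for both, and KO replicate 4 lay just under the lowest WT library for *mt-Atp6* and between WT libraries for *mt-Co3*. The others were *mt-Nd4l* (log2 fold change -0.36), *mt-Co2* (-0.28), *mt-Nd3* (-0.16) and *mt-Atp8* (-0.02, from 9 to 21 counts per library). Adjusted p-values of the 6 ranged from 0.241 to 0.988.

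**Figure D3:**
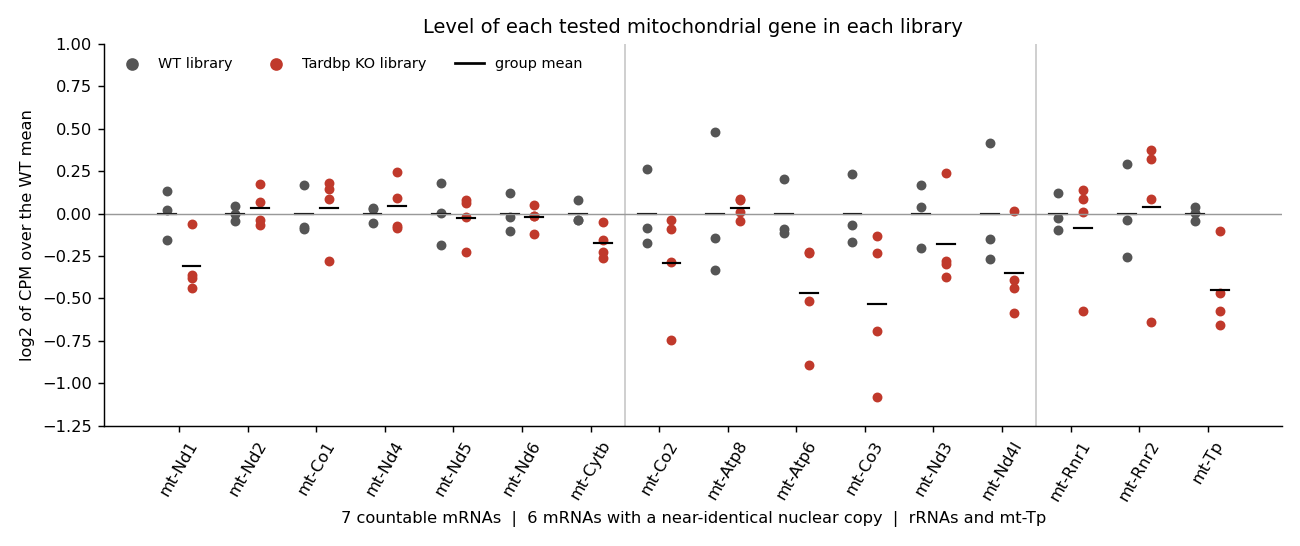
Level of each of the 16 tested mitochondrial genes in each library, as log2 of its CPM minus the mean log2 CPM of the 3 WT libraries (vertical axis), for the 7 countable mRNAs, the 6 with a near-identical nuclear copy, and the rRNAs with *mt-Tp*; lines mark group means. KO libraries scatter around the WT level for most countable mRNAs, and lie below all WT libraries for *mt-Cytb*, *mt-Atp6* and *mt-Tp*.

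*mt-Rnr1*, the rRNA of the small ribosomal subunit, had 159.6, 185.2 and 167.5 CPM in WT and 114.3, 171.4, 181.2 and 187.5 in KO. *mt-Rnr2*, that of the large subunit, had 115.1, 167.8 and 133.7 CPM in WT and 88.1, 177.6, 171.7 and 145.7 in KO. KO replicate 1 was the lowest of the 7 libraries for both, and the groups overlapped, with log2 fold changes of -0.06 (SE 0.19) and 0.07 (SE 0.25). The counts of *mt-Rnr2* over those of *mt-Rnr1* were 0.721 to 0.906 in WT and 0.771 to 1.04 in KO.

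The gene with the smallest p was *mt-Tp*, whose counts cannot be read as the level of its tRNA alone. It had 37.6, 35.6 and 36.9 CPM in WT and 24.6, 26.5, 23.3 and 34.1 in KO, so that KO replicate 4 lay just below the WT libraries and the other KO libraries well below them. The log2 fold change was -0.44 (SE 0.16), with an unadjusted p of 0.0219 and an adjusted p of 0.162 in edgeR's quasi-likelihood test, and an exact permutation p of 0.0571. With library size alone the log2 fold change was -0.09. When each library was left out in turn, *mt-Tp* had an unadjusted p under 0.05 only in the fits without WT replicate 2 or without KO replicate 4.

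Proportions among the mitochondrial mRNAs do not depend on how libraries are scaled. *mt-Co1* made up 39.4%, 46.5% and 41.4% of mitochondrial mRNA counts in WT and 40.4%, 46.4%, 47.3% and 45.4% in KO. *mt-Cytb* made up 20.1% ± 0.931 (SD, n = 3) in WT and 18.5% ± 1.01 (SD, n = 4) in KO, *mt-Nd1* 11.8% ± 1.30 and 9.80% ± 0.843, and *mt-Nd4* 9.05% ± 0.0833 and 9.67% ± 0.511. All of these overlapped between genotypes. The proportions that did not overlap were those of *mt-Atp6* (0.0782% ± 0.00943 in WT against 0.0586% ± 0.00750 in KO) and *mt-Co3* (0.0676% to 0.0855% against 0.0402% to 0.0634%), both copied in the nuclear stretch. *mt-Nd3* and *mt-Nd6* were tested apart from the rest because other work has described their mRNAs as bound by TDP-43. For *mt-Nd3*, a copied gene with 0.671% of windows countable and 224 to 340 counts per library, the counts do not report the proportion of its mRNA, and the values only describe the reads left to it. Its counts were 0.0395%, 0.0357% and 0.0319% in WT and 0.0335%, 0.0272%, 0.0308% and 0.0398% of mitochondrial mRNA counts in KO, a log2 difference of -0.13 (2-sided exact permutation p = 0.429, adjusted over these 2 tests p = 0.857). The proportion of *mt-Nd6* was 2.10%, 1.78% and 1.98% in WT and 2.34%, 1.92%, 1.89% and 1.83% in KO, a log2 difference of 0.03 (exact permutation p = 0.857, adjusted p = 0.857). The difference in *mt-Nd6* lay within the spread between libraries. The counts of *mt-Co1* over those of *mt-Nd5*, which lies farther along the same strand, were 4.75, 7.28 and 5.38 in WT and 4.46, 6.04, 6.16 and 7.59 in KO.

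Most subunits of the same complexes come from nuclear genes, and these lay lower in KO on the TMM scale without passing the limits for a call. All 71 nuclear OXPHOS subunit genes tested had a log2 fold change below 0, beside 45.7% of all genes, with a median of -0.41. Of these, 35 (49.3%) had an unadjusted p under 0.05 and were lower in KO, beside 10.7% of all genes, and in 21 (29.6%) the highest KO library lay below the lowest WT library, beside 9.62%. None was called by edgeR's quasi-likelihood or exact test, and DESeq2 called *Atp5g1* (adjusted p = 0.00985), a gene for the membrane ring of ATP synthase, which had 218.4, 144.4 and 233.5 CPM in WT and 111.8, 75.8, 62.0 and 130.4 in KO (log2 fold change -1.07, SE 0.28). By complex, 19 of 36 genes of complex I, 3 of 9 of complex III, 3 of 11 of complex IV and 10 of 15 of complex V had an unadjusted p under 0.05, with medians of -0.41, -0.46, -0.37 and -0.47. The mitochondrial members of these complexes had medians of -0.03 (7 genes of complex I), -0.17 (1 of complex III), -0.28 (3 of complex IV) and -0.23 (2 of complex V), and none had an unadjusted p under 0.05. The medians of complexes IV and V are values of genes with a nuclear copy, which the counts do not measure, and *mt-Co1*, the only countable gene of complex IV, was at 0.04. Of complex V no gene was countable.

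In complex I the genes with the lowest p were *Ndufa3* (log2 fold change -0.86, SE 0.18, quasi-likelihood adjusted p = 0.0742), *Ndufa12* (-0.76) and *Ndufc2* (-0.89), all accessory subunits. In complex III they were *Uqcr11* (-0.76), *Uqcrc2* (-0.46) and *Cyc1*, the gene of cytochrome c1 (-0.49). In complex IV they were *Cox7b* (-0.62), *Cox7a2* (-0.51) and *Cox6c* (-0.37), and in complex V *Atp5g1*, *Atp5o* (-0.57) and *Atp5k* (-0.70).

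These counts depended on the scale and on single libraries. With library size alone 49 of the 71 (69.0%) lay below 0, beside 18.9% of all genes. An unadjusted p under 0.05 with a lower level in KO was found for 4 (5.63%), beside 3.19% of all genes. The median was -0.06 when that of all genes was 0.40. The median log2 level of the 71, relative to WT, was -0.54, -0.42 and -0.64 in KO replicates 1, 2 and 3 and -0.04 in KO replicate 4. Without KO replicate 4 the number with an unadjusted p under 0.05 was 62, or 87.3%, beside 12.6% of all genes lower in KO. It was 34 without WT replicate 2 (47.9% beside 11.7%) and 10 without WT replicate 1 (14.1% beside 5.89%). For the others it was 13 without WT replicate 3 (18.3% beside 7.66%), 17 without KO replicate 1 (23.9% beside 10.3%), 17 without KO replicate 2 (23.9% beside 8.39%) and 13 without KO replicate 3 (18.3% beside 7.63%). Without KO replicates 1 and 3, the libraries with the most lymphocyte RNA, 63 of the 71 (88.7%) lay below 0, beside 46.6% of all genes. In that fit 4 (5.63%) had an unadjusted p under 0.05 beside 7.08% of all genes, and the median was -0.23. In lane 4 alone the median was -0.19, with 68 of 71 (95.8%) below 0, beside 48.6% of all genes.

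The ratio of summed mitochondrial mRNA to summed nuclear OXPHOS mRNA needs no scaling between libraries. It was 1.86, 2.17 and 1.78 in WT and 2.33, 2.67, 2.90 and 2.11 in KO. KO replicates 1 to 3 lay above all WT libraries, and KO replicate 4 lay between WT libraries, so that the groups overlapped (means 1.94 ± 0.208, n = 3, and 2.51 ± 0.352, n = 4).

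**Figure D4:**
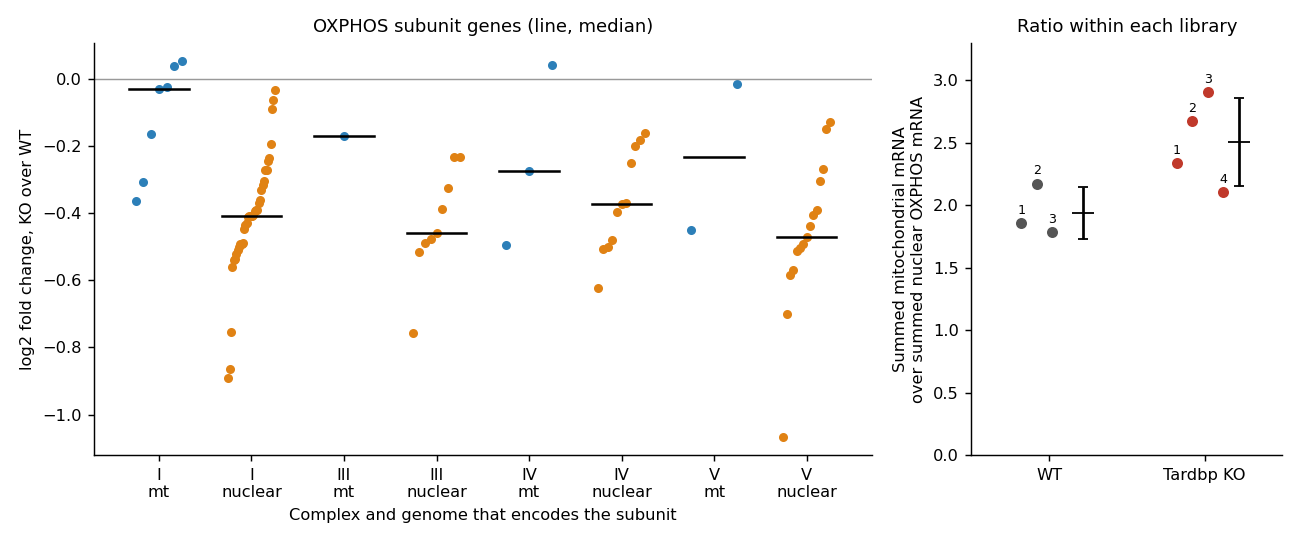
Left, log2 fold change (KO over WT, TMM-scaled) of each mitochondrial (mt, blue) and nuclear (orange) subunit gene of OXPHOS complexes I, III, IV and V, with the median of each set as a line. Right, summed mitochondrial mRNA over summed nuclear OXPHOS mRNA in each library, with mean and SD: all 71 nuclear genes lie below 0, mitochondrial genes lie between -0.50 and 0.05, and KO replicate 4 (2.11) falls within the WT range of 1.78 to 2.17.

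Nuclear genes that copy and read out the mitochondrial genome had smaller values. Of 60 tested genes for its transcription, replication, RNA processing and translation, 44 had a log2 fold change below 0 and 13 (21.7%) had an unadjusted p under 0.05 and were lower in KO, beside 45.7% and 10.7% of all genes, with a median of -0.15. None was called by edgeR's quasi-likelihood test, edgeR's exact test or DESeq2. *Polrmt*, the RNA polymerase of mitochondria, had 28.5, 36.3 and 33.9 CPM in WT and 38.3, 28.2, 27.5 and 35.3 in KO (log2 fold change -0.03, SE 0.17). *Tfam*, which packs mitochondrial DNA and opens its promoters, had 22.002, 23.3 and 20.7 CPM in WT and 22.7, 21.8, 24.8 and 26.4 in KO (0.12, SE 0.14). Both overlapped between genotypes. *Lrpprc* (-0.06, SE 0.13) and *Slirp* (-0.29, SE 0.23; listed as *1810035L17Rik*), whose products bind and stabilise mitochondrial mRNAs as a pair, overlapped too.

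The 9 genes for transcription had a median of 0.01, and those with the lowest p were *Mrpl12* (-0.54), a ribosomal protein that also binds the polymerase, *Mterf2* (-0.39, listed as *Mterfd3*) and *Tfb1m* (-0.32). Among 29 genes for RNA processing and stability, 9 (31.0%) had an unadjusted p under 0.05 and were lower in KO, beside 10.7% of all genes, with a median of -0.24. The helicase gene *Twnk* is among the 9 and also stands in the list for replication. *Trmu*, which modifies mitochondrial tRNAs, had 19.7, 19.4 and 16.6 CPM in WT and 11.2, 10.4, 11.96 and 12.03 in KO, with no overlap (log2 fold change -0.70, SE 0.15, quasi-likelihood adjusted p = 0.0781). *Pnpt1*, an RNA-degrading enzyme of mitochondria, had a log2 fold change of -0.60 (adjusted p = 0.0974), and *Ptcd2*, a pentatricopeptide repeat protein, also had -0.60 (adjusted p = 0.162). Of 13 translation factors, 3 (23.1%) had an unadjusted p under 0.05 and were lower in KO, beside the same 10.7% of all genes. They were *Ptcd3* of the small ribosomal subunit (-0.73), *Taco1*, an activator of *mt-Co1* translation (-0.52), and the elongation factor *Tsfm* (-0.42). With library size alone 14 of the 60 (23.3%) lay below 0, beside 18.9% of all genes, with a median of 0.21 when that of all genes was 0.40. The number of the 60 with an unadjusted p under 0.05 and lower in KO was 5 without WT replicate 1 (8.33%, beside 5.89% of all genes), 3 without WT replicate 3 (5.0% beside 7.66%), 3 without KO replicate 2 (5.0% beside 8.39%), 5 without KO replicate 3 (8.33% beside 7.63%), and 5 without KO replicates 1 and 3 (8.33% beside 7.08%). The number was 13 without WT replicate 2 (21.7% beside 11.7%), 10 without KO replicate 1 (16.7% beside 10.3%) and 11 without KO replicate 4 (18.3% beside 12.6%). The share was thus above that of all genes in some fits and near or below it in others.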

How the data were processed

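The authors prepared libraries from total RNA of the gland with an Illumina TruSeq kit, mapped paired-end reads to NCBIM37 with STAR (2.5.2a per the labels) and counted them on genes with featureCounts 1.4.6-p5. The values the authors deposited are raw counts of every annotated gene. By the command in the file header, strand was not used, mates counted separately, and reads with several places or genes were left out. That command names 8 libraries, of which 7 have a column. The study removed mitochondrial genes before its own comparison.

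Here the 37 genes of chromosome M were kept. Library sizes and TMM factors came from the other genes, without 572 ribosomal ones, kept at 5 or more counts in 4 or more libraries, and 17196 genes were tested with edgeR 4.0.16 (R 4.3.3, quasi-likelihood, no covariate, Benjamini-Hochberg over all of them; common dispersion 0.0920). Levels are TMM-scaled CPM ± SD. Exact permutation tests took log2(CPM + 1) over the 35 splits. The limits for a call are those of the study. DESeq2 was 1.42.0. Nuclear matches were found with BLAST 2.17.0, and tables were made with Python 3.11.15 and scipy 1.17.1. The fit was tested on simulated data. Counting error is small against the spread between libraries, and mates and PCR copies are not independent molecules, so that intervals and floors cover counting error only.

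The members, gene lists and tests were chosen with earlier results of these data known. Named were all mitochondrial mRNA and rRNA genes, tRNA genes that passed the filter, *Polrmt*, *Tfam*, *Lrpprc*, *Slirp* and *Ppargc1a*, and the 3 genes with the lowest unadjusted p of every other nuclear list. Of the listed genes, *Tefm*, *Mterf1b*, *Prorp*, *Cox14* and *Mss51* were not matched to a symbol of the table, and 1 marker gene is not reported here. Alternatives were other scalings, filters and tests, a block by replicate number, lane 4 alone, and each library left out in turn. The fits without KO replicates 1 and 3 and the median over the 7 countable mRNAs were added after seeing the data.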

Additional observations from a re-analysis of the deposited data

Results flagged for a closer look

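In 6 of 74 groups of 4 KO libraries looked at, the highest or lowest library lay apart from the other KO libraries beyond Dixon's 95% limit, where chance gives about 1 in 20, or 3.7. KO replicate 4 was the high library in 5 of them. It had 9.07 CPM of *mt-Nd3*, against 5.91 to 6.31 in the other KO libraries and 6.66 to 8.61 in WT. Its *mt-Nd4l* made up 0.00936% of mitochondrial mRNA counts, against 0.00741% to 0.00759%. Both genes have a near-identical nuclear copy. It also had 66.3 CPM of *Ndufa3* against 45.3 to 47.7, 31.2 CPM of *Gabpb1* against 25.5 to 26.2, and 167.6 CPM of *Esrra* against 80.4 to 89.0. KO replicate 1 was the high library for *mt-Nd6*, at 2.34% of mitochondrial mRNA counts against 1.83% to 1.92%. Groups of 3 WT libraries were not looked at in this way.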

How the results depend on the processing

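No mitochondrial gene was called in any of the 18 alternative fits run with a test, nor at an adjusted p under 0.05 with no limit on the fold change in the fit reported. Lane 4 alone gave values without a test. With library size alone, where the median of all genes moved from 0.05 to 0.40, the median log2 fold change of the 13 mitochondrial mRNAs was 0.18 instead of -0.16, that of the nuclear OXPHOS genes -0.061 instead of -0.41, and the sign turned for *mt-Rnr1* (0.29), *mt-Nd1* (0.046), *mt-Co2* (0.090), *mt-Atp8* (0.33), *mt-Nd3* (0.18), *mt-Nd4l* (0.00071), *mt-Nd5* (0.34), *mt-Nd6* (0.34), *mt-Cytb* (0.18), *Polrmt* (0.31), *Lrpprc* (0.30), *Tfb1m* (0.062) and *Ppargc1a* (0.36). In lane 4 alone the median of the 13 mRNAs was -0.034, and the sign turned for *mt-Rnr2* (-0.080), *mt-Co1* (-0.032), *mt-Co2* (0.016), *mt-Nd5* (0.062), *mt-Nd6* (0.039), *Lrpprc* (0.094) and *Ppargc1a* (0.14). Over the 7 countable mRNAs the median was -0.024. Without milk protein genes the difference between KO and WT in mRNA share was 0.155 instead of 0.420 percentage points, and that in tRNA share -0.00079 instead of -0.00017. Among the nuclear genes listed for mitochondrial gene expression and OXPHOS subunits, DESeq2 called 1, *Atp5g1*. Without KO replicates 1 and 3 the sign turned for *mt-Rnr1* (0.075) and *Ppargc1a* (0.25). *Ppargc1a*, at -0.00068, also turned with upper quartile factors (0.0096), with TMM over all genes (0.0033), without a filter (0.0013), with the stricter filter (0.016) and in DESeq2 (0.00026). The cause of these turns was not tested.

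With each library left out in turn, values of 12 results lay on both sides of 0: the proportion of *mt-Nd6* (log2 difference -0.054 to 0.080) and the log2 fold changes of *mt-Rnr1* (-0.15 to 0.079), *mt-Rnr2* (-0.047 to 0.25), *mt-Nd2* (-0.034 to 0.072), *mt-Co1* (-0.028 to 0.14), *mt-Atp8* (-0.17 to 0.27), *mt-Nd4* (-0.039 to 0.098), *mt-Nd5* (-0.11 to 0.064), *mt-Nd6* (-0.072 to 0.041), *Polrmt* (-0.12 to 0.053), *Lrpprc* (-0.13 to 0.0091) and *Ppargc1a* (-0.13 to 0.22). The median of the 13 mRNAs lay between -0.23 and -0.10, and their share remained 0.3501 to 0.508 percentage points higher in KO.

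Replicate numbers are shared by the groups, and whether they pair the libraries cannot be told from so few pairs. Deviations of same-numbered libraries correlated at 0.437, 0.0743 and -0.0835 across genes. Those of differently numbered libraries correlated at -0.473 to 0.334. With the number as a replicate block no mitochondrial gene was called. Number 4 occurs only in KO, so KO replicate 4 did not enter the genotype difference of this fit. The median of the 13 mRNAs was -0.21 and that of the nuclear OXPHOS genes -0.55, beside -0.23 and -0.56 without KO replicate 4. Of the 71, 56 (78.9%) had an unadjusted p under 0.05 and were lower in KO, beside 11.8% of all genes. The sign changed for *mt-Nd2* (-0.014), *mt-Co1* (-0.016), *mt-Nd4* (-0.021) and *mt-Nd5* (0.040).

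Depth does not limit the countable genes, whose spread between libraries exceeds counting error. The 6 copied mRNAs are limited by which reads can be counted, and nothing was measured of the 16 tRNA genes at 0.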

Other observations

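Other nuclear genes of mitochondria were described in the same way. Of 12 genes for abundant proteins of the outer membrane, cristae and matrix, 11 had a log2 fold change below 0 and 6 had an unadjusted p under 0.05 and were lower in KO, beside 45.7% and 10.7% of all genes, with a median of -0.40. With library size alone 7 of the 12 lay below 0, beside 18.9% of all genes, and the median was -0.03, when that of all genes was 0.40. The 3 with the lowest p were *Phb* (prohibitin, log2 fold change -0.68), *Hspa9* (a matrix chaperone, -0.68) and *Tomm40* (the import pore, -0.70), each with no overlap between genotypes and quasi-likelihood adjusted p-values of 0.0896 to 0.121. Of 10 genes for the replication of mitochondrial DNA, 6 lay below 0, with a median of -0.09. *Twnk* (listed as *Peo1*), the replicative helicase, had 22.8, 20.9 and 19.9 CPM in WT and 18.9, 16.1, 12.9 and 16.4 in KO (log2 fold change -0.40, quasi-likelihood unadjusted p = 0.0387), and *Primpol* (listed as *Ccdc111*, 0.42) and *Top1mt* (0.33) had the next lowest p.

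The 10 regulators of mitochondrial biogenesis were mixed, with 4 above and 6 below 0 and a median of -0.04. *Gabpb1*, a subunit of the factor that drives many nuclear OXPHOS genes, had 17.4, 21.6 and 15.4 CPM in WT and 26.2, 25.5, 25.6 and 31.2 in KO (log2 fold change 0.58, SE 0.16, quasi-likelihood adjusted p = 0.107). *Nrf1*, another such factor, was also higher in all KO than in all WT libraries (0.28, adjusted p = 0.285). This held for 2 of the 10 genes, beside 9.06% of all genes. *Esrra*, a nuclear receptor that acts with PGC-1 coactivators, had 123.1, 187.0 and 154.2 CPM in WT and 89.0, 86.7, 80.4 and 167.6 in KO, and overlapped through KO replicate 4 (-0.55, adjusted p = 0.295). *Ppargc1a*, the gene of PGC-1 alpha, had 2.14, 2.20 and 2.20 CPM in WT and 1.115, 2.76, 2.42 and 2.43 in KO.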
